A study of Homo sapiens with 48 samples.

Results

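Tumors grown from A431 cells were set against the same line kept in culture, gene by gene, in a pooled CRISPR knockout screen. The comparison holds 8 tumors and 2 cultures, which are 10 of the 48 samples of the series and 10 of its 38 samples taken after growth. They were chosen by the deposited tables of the line, 1 for tumors and 1 for culture, with rows matched over the same 327 genes. A431 (A-431) is a human epidermoid carcinoma line known for many copies of the EGFR gene. All cells of both settings carried a Cas9 lentivirus selected with blasticidin and a guide RNA library given at a multiplicity of infection of 0.3 and selected with puromycin. For the tumors, these cells were mixed with Matrigel and injected into the flanks of immunodeficient SHO mice, 2000000 to 4000000 at a time, and tumors were taken after about 2 months. For culture, the cells were grown for 3 weeks. Each setting had 2 initial samples of its own, frozen before growth, and each deposited value is a log fold change from those initial cells to a grown sample. The labels state neither the age of the mice nor which tumors shared a mouse. The library targeted 334 genes, beside 136 guides that target none.

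In such a screen each cell loses 1 gene, and the guide in its genome serves as a tag. Cells whose lost gene supports growth in a setting become rarer there, so the log value of that gene turns negative. Cells whose lost gene holds growth back become more common, and the value turns positive. Culture on plastic asks for division and survival. Growth under the skin also asks for nutrients from a host blood supply and for growth in 3 dimensions. Integrins are the receptors through which epithelial cells hold laminin and other matrix, and kindlins switch them on. The p63 and Notch proteins often act on opposite sides of the squamous cell's choice between proliferation and differentiation. Mouse cells in a tumor carry no guides. The tables hold no expression, so the identity of the line cannot be checked against marker genes.

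Values are given in log units, since the log base is not stated. Each column was centred on its median gene, so 0 marks the median gene of the library and not a neutral knockout. Read depth is unknown for every value. The columns carry no replicate numbers and are called value columns. Tumors scattered far more than cultures. The median over genes of the SD was 0.625 log units between tumors and 0.128 between cultures, and the SD was larger between tumors for 325 of 327 genes. The SD over genes within a column lay between 0.421 (tumor value column 3) and 1.34 (tumor value column 6), against 0.498 and 0.51 in the cultures. The means of tumors and culture correlated across the 327 genes with a Pearson r of 0.47 and a Spearman rho of 0.36, given as a description.

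**Figure D1:**
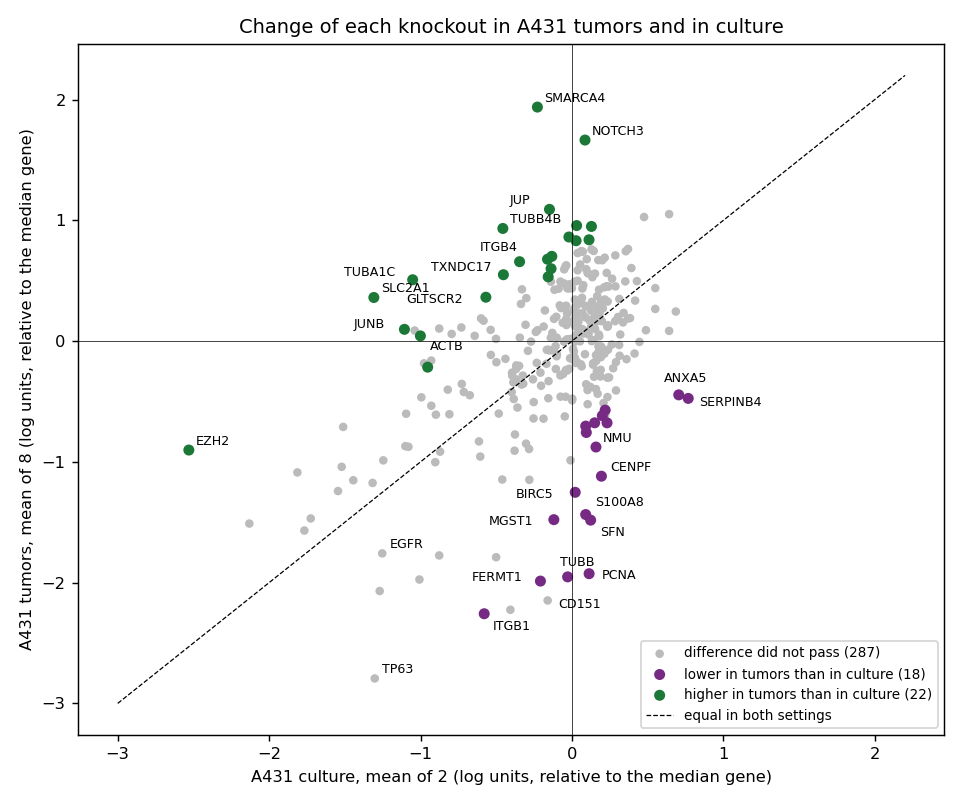
Mean change of each knockout in 8 A431 tumors (vertical axis) and in 2 A431 cultures (horizontal axis), both in log units relative to the median gene, with 1 point per gene. The 18 genes lower in tumors lie below the dashed line of equal change and mostly near 0 in culture, while the 22 higher genes include a group near -1 in culture and 0 or above in tumors.

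With an own spread for each setting, 18 of 327 genes were lower in tumors than in culture (5.50%) and 22 were higher (6.73%), together 12.2%, at an adjusted p under 0.05. The lowest differences belonged to PCNA, TUBB, FERMT1, ITGB1 and SFN, between -2.04 and -1.61 log units. The highest belonged to SMARCA4, SLC2A1, EZH2, NOTCH3 and TUBA1C, between 2.17 and 1.56. With 1 spread for both settings, limma called 0 genes lower and 0 higher, and 7 lower and 13 higher genes had an unadjusted p under 0.05 (2.14% and 3.98%, or 6.12% together). Every call below therefore rests on letting the 2 cultures have their own, smaller spread. That spread comes from 2 cultures, which may share their start, and it holds none of the error of the initial cells of either setting. Time of growth and the setting cannot be told apart, since tumors grew for about 2 months and cultures for 3 weeks. Without value column 6 the lower genes numbered 11, and without value column 2 the higher genes numbered 12. In all, 21 of the 40 called genes, 10 lower and 11 higher, passed with any 1 tumor left out. The 10 lower ones were PCNA, TUBB, FERMT1, ITGB1, SFN, MGST1, CENPF, SERPINB4, ANXA5 and DCN. The 11 higher ones were SMARCA4, SLC2A1, EZH2, NOTCH3, TUBA1C, TUBB4B, JUP, JUNB, ACTB, TXNDC17 and CALML3. Without either culture, and with the lone culture assumed to vary like the tumors, limma called 0, and 3 to 4 lower and 5 to 6 higher genes had an unadjusted p under 0.05. On the deposited scale, where guides that target no gene stand at 0, the calls were 17 lower and 38 higher. With each column divided by its SD over genes they were 21 and 44.

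Against the median gene, 39 knockouts were lost in tumors (11.9%) and 26 were gained (7.95%), together 19.9%. In culture 37 were lost (11.3%) and 7 were gained (2.14%), together 13.5%. The 40 genes that differed between the settings fell into a few patterns by these tests. On the deposited scale the median gene stood at -0.371 and -0.358 in the cultures and between -0.552 and -0.0742 in the tumors. The patterns were not tested on that scale. Of the 18 lower genes, 14 were lost in tumors and did not pass in culture: PCNA, TUBB, FERMT1, ITGB1, SFN, S100A8, MGST1, CENPF, BIRC5, NMU, S100A16, RFX5, CCNB2 and DCN. SERPINB4 and ANXA5 were gained in culture and did not pass in tumors. KLF8 and WNT10A passed in neither setting. Of the 22 higher genes, 11 were gained in tumors and did not pass in culture: PTRF, IRX3, E2F8, KRT6B, ERF, TPM2, CALML3, JUP, TUBB4B, NOTCH3 and SMARCA4. KLF16, ACTB, JUNB, TUBA1C and SLC2A1 were lost in culture and did not pass in tumors. EZH2 was lost in both settings, less in tumors. USF2, TNC, GLTSCR2, TXNDC17 and ITGB4 passed in neither. For 24 of the 40 genes the 8 tumors and 2 cultures did not overlap, 8 lower and 16 higher. Over all genes, 8 (2.45%) lay lower in every tumor than in both cultures and 22 (6.73%) lay higher in every tumor, together 9.17%. The 6 that were separate without a call were FHL2, HIST1H4C, KLF7, PLEK2, RPS19 and SERPINH1.

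**Figure D2:**
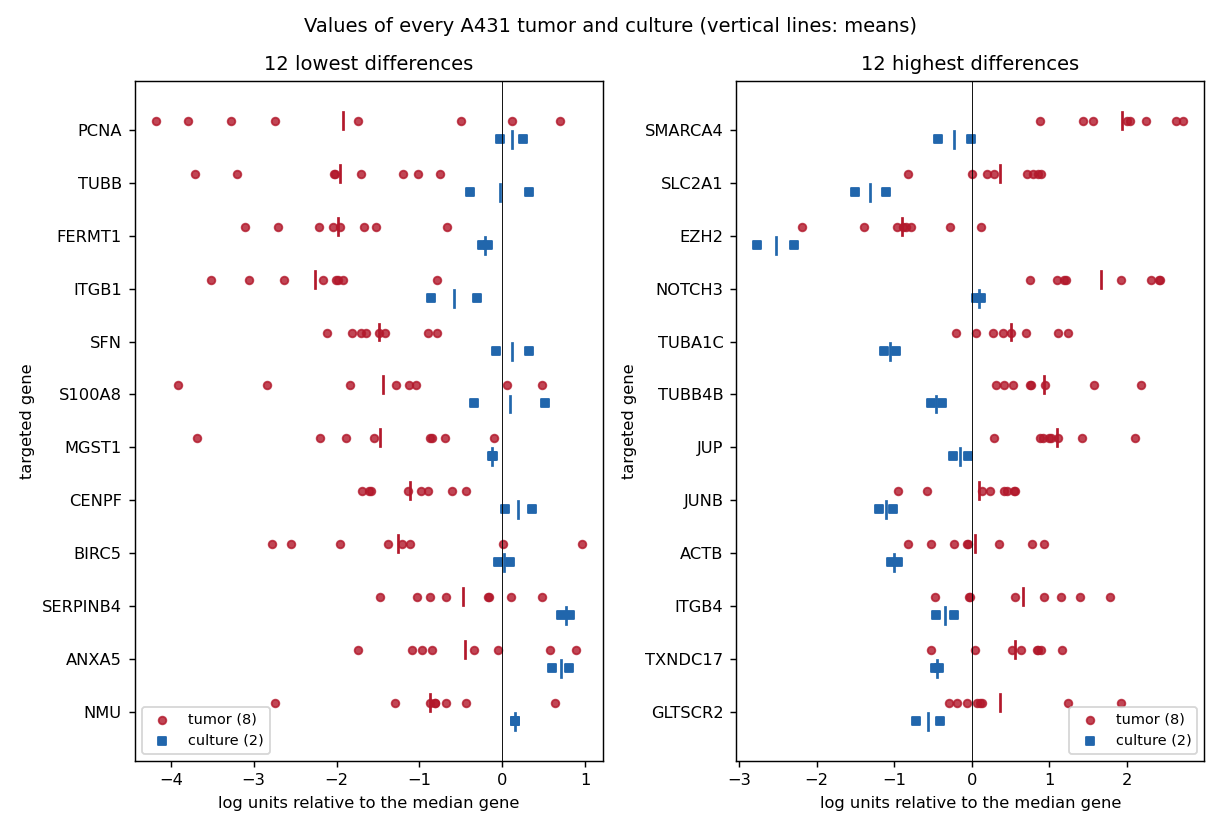
Value of each of the 8 A431 tumors (circles) and the 2 A431 cultures (squares) for the 12 genes with the lowest and the 12 with the highest called differences, in log units relative to the median gene, with vertical lines at the means. Tumor points spread over several units for PCNA, S100A8, MGST1 and BIRC5 and reach the cultures there, while FERMT1, SFN, SMARCA4 and NOTCH3 stand clear of both cultures in every tumor.

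Knockouts of the integrin receptor and its activator were lost in tumors and stood lower there than in culture. FERMT1 encodes kindlin-1, which binds the integrin tail and activates the receptor. Its values in tumors ran from -3.11 to -0.67 with a median of -2.0, against -0.17 and -0.25 in the 2 cultures. Each tumor lay below both cultures. The mean was -1.99 ± 0.74 in tumors (SD, n = 8) and -0.21 ± 0.06 in culture (SD, n = 2). The difference was -1.78 log units (SE 0.27, 95% interval -2.34 to -1.22, adjusted p = 0.000313). ITGB1, the beta-1 integrin subunit shared by many matrix receptors, ran from -3.51 to -0.78 in tumors with a median of -2.08, against -0.86 and -0.30 in the cultures. The weakest tumor value, in value column 3, lay between the cultures, so the groups overlapped by that tumor. The mean was -2.26 ± 0.83 in tumors (SD, n = 8) and -0.58 ± 0.39 in culture (SD, n = 2). The difference was -1.68 (SE 0.31, adjusted p = 0.00138) and did not pass with each column divided by its SD over genes (adjusted p = 0.062). An exact two-sided permutation test over the 45 splits into 8 and 2 gave p = 0.0222 for FERMT1, the smallest these numbers allow, 0.0667 for ITGB1 and 0.622 for EGFR (0.0667, 0.1 and 0.622 after Benjamini-Hochberg adjustment over these 3 genes).

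Other integrin subunits gave mixed values. ITGB4, the beta-4 subunit of hemidesmosomes, was higher in tumors, with values from -0.48 to 1.78 (median 0.74) against -0.23 and -0.46 in the cultures. One tumor, at -0.48, lay below both cultures and the other 7 lay above them. Its difference of 1.00 (SE 0.28, adjusted p = 0.0276) was lost without value column 2, 6, 7 or 8 (adjusted p up to 0.0632) and in a robust fit (adjusted p = 0.0557). ITGAV, the alpha-v subunit, differed by -0.87 (adjusted p = 0.0715), and ITGA3 and ITGA6, the alpha partners of laminin receptors, by -0.03 and -0.19. CD151, a tetraspanin that associates with laminin-binding integrins, had a difference of -1.99 (SE 0.68, adjusted p = 0.0653). That mean holds 1 tumor at -8.22, in value column 2, and the other 7 tumors averaged -1.28. Without that tumor the difference passed at -1.12 (adjusted p = 0.0351). It also passed without value column 3 (adjusted p = 0.0405), in the robust fit (adjusted p = 0.0265) and with columns divided by their SD (adjusted p = 0.0474). Of 6 measured integrin subunits, 1 was lower and 1 was higher, and their median difference was -0.20, against 0.07 over all genes. Over all 327 genes, 18 were lower (5.50%) and 22 were higher (6.73%). Of 4 integrin partners (CD151, FERMT1, CAV1 and FHL2), FERMT1 was lower and 3 did not pass with all columns in, with a median of -0.59.

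TP63 and EGFR, both lost in each setting, did not pass as differences with all columns in. TP63 encodes p63, the factor that maintains squamous epithelial identity. It had the lowest tumor mean of all genes, with values from -5.75 to 0.23 (median -3.06), against -1.22 and -1.39 in the cultures, and a difference of -1.49 (SE 0.54, adjusted p = 0.077). It passed without value column 1 (-1.92, adjusted p = 0.0299) or 3 (-1.86, adjusted p = 0.0355), and with columns divided by their SD it was -0.14 SD units (adjusted p = 0.877). EGFR, the receptor for epidermal growth factor, ran from -3.36 to -0.17 in tumors with a median of -1.82, against -1.20 and -1.30 in the cultures. Of the 8 tumors, 5 lay below the culture mean and 3 above it. The difference was -0.51 (95% interval -1.26 to 0.25, adjusted p = 0.387), and with each column divided by its SD over genes it turned to 0.62 SD units (adjusted p = 0.292).

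PCNA, the sliding clamp of DNA replication, had the lowest difference of all genes. In tumors its values ran from -4.18 to 0.70 with a median of -2.24, against 0.25 and -0.03 in the cultures. In 5 tumors PCNA was at -1.74 or lower, in value column 8 it was at -0.49, and in value columns 1 and 3 it stood at 0.12 and 0.70, level with or above the cultures. The mean was -1.93 ± 1.86 in tumors (SD, n = 8) and 0.11 ± 0.20 in culture (SD, n = 2). The difference of -2.04 (SE 0.50, adjusted p = 0.0159) was lost in the robust fit (adjusted p = 0.0668). Of 12 measured replication and nucleotide supply genes, PCNA was lower, against 18 of all 327 genes (5.50%), and 11 did not pass. Their median difference was 0.33, against 0.07 over all genes, and 8 of 12 were above 0, against 185 of 327. The median of their means was -0.57 in tumors and -0.95 in culture, where 7 of the 12 were lost, against 4 in tumors. Over all 327 genes, 37 were lost in culture (11.3%) and 39 in tumors (11.9%). The tests of the settings had unlike spreads and numbers of columns, so 7 against 4 is a description. TYMS, which makes thymidylate, had means of -1.09 in tumors and -1.81 in culture. MCM7, a subunit of the replicative helicase, had means of -0.18 and -0.98. BRCA1, which repairs broken DNA, had the highest difference of the list, 1.13 (adjusted p = 0.077), with cultures as far apart as -1.57 and -0.51, and passed without value column 7 (1.38, adjusted p = 0.038) and on the deposited scale (adjusted p = 0.047). MCM5, another helicase subunit, differed by -1.82 (adjusted p = 0.0541) with tumors from -6.88 to 0.13.

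Among genes of mitosis, CENPF, BIRC5 and CCNB2 were lower in tumors. CENPF, a large protein of the kinetochore, ran from -1.70 to -0.43 in tumors (median -1.06), against 0.35 and 0.03 in the cultures. All 8 tumors lay below both. Its difference was -1.31 (SE 0.24, adjusted p = 0.00116). BIRC5 encodes survivin, a member of the chromosomal passenger complex, and ran from -2.78 to 0.96 in tumors (median -1.29), against -0.05 and 0.09 in the cultures. Its groups overlapped, with 6 tumors at -1.11 or lower and 2 tumors at 0.01 and 0.96. The call at -1.27 (adjusted p = 0.0363) was lost without value column 1, 3, 4, 6, 7 or 8 (adjusted p up to 0.0827) and in the robust fit (adjusted p = 0.0576). CCNB2, a mitotic cyclin, differed by -0.79 (adjusted p = 0.0428), lost without value column 1, 2, 3, 5, 7 or 8 (adjusted p up to 0.0956), on the deposited scale (adjusted p = 0.0564) and with columns divided by their SD (adjusted p = 0.0561). Of 20 mitosis genes 3 were lower, against 18 of all 327 genes (5.50%), and 17 did not pass. Their median difference was -0.02, with 10 genes below 0 and 10 above. CDC20, the activator of the anaphase-promoting complex, was highest at 0.77 (adjusted p = 0.277), with tumors from -3.47 to 1.48. The lowest of these was value column 2, and without it CDC20 passed at 1.24 (adjusted p = 0.0195). It also passed with columns divided by their SD (1.65 SD units, adjusted p = 0.0194).

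Of 6 genes in the tubulin list, TUBB was lower in tumors, TUBB4B and TUBA1C were higher, and 3 did not pass. Over all 327 genes, 18 were lower (5.50%) and 22 were higher (6.73%). TUBB, a beta-tubulin, was lost in tumors, with values from -3.70 to -0.75 (median -1.86) against -0.38 and 0.33 in the cultures. Every tumor lay below both cultures, and the difference was -1.92 (SE 0.37, adjusted p = 0.00152). TUBA1C, an alpha-tubulin lost in culture, ran from -0.21 to 1.23 in tumors with a median of 0.45, against -1.13 and -0.97 in the cultures. All 8 tumors lay above both cultures, by a difference of 1.56 (SE 0.23, adjusted p = 0.000313). TUBB4B, a beta-tubulin also used in cilia, ran from 0.31 to 2.18 in tumors (median 0.75), against -0.39 and -0.53 in the cultures, a difference of 1.39 (SE 0.25, adjusted p = 0.00114). TUBA1B, TUBB2A and the tubulin-binding stathmin STMN1 differed by 0.23, 0.00 and -0.22 and did not pass. Guides to such close relatives can cut more than 1 copy, and the guide sequences were not used here.

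Knockouts of the chromatin enzymes SMARCA4 and EZH2 and of the receptor NOTCH3 stood higher in tumors than in culture. SMARCA4 encodes BRG1, an ATPase of the SWI/SNF remodeller. Its tumors ran from 0.87 to 2.72 with a median of 2.02, against -0.44 and -0.02 in the cultures. Every tumor lay above the median gene and both cultures lay below it. The mean was 1.94 ± 0.62 in tumors (SD, n = 8) and -0.23 ± 0.30 in culture (SD, n = 2). The difference was 2.17 (SE 0.27, 95% interval 1.60 to 2.73, adjusted p = 7.37e-05), the largest of the 327. NOTCH3, a receptor that takes part in keratinocyte differentiation, ran from 0.74 to 2.43 in tumors (median 1.57), against 0.12 and 0.05 in the cultures, a difference of 1.58 (SE 0.26, adjusted p = 0.000423). EZH2, which places the repressive histone mark of Polycomb, had the lowest culture mean of all genes, and was lost in both settings. Its tumors ran from -2.19 to 0.12 with a median of -0.87, against -2.30 and -2.76 in the cultures, and all lay above both. The difference was 1.63 (SE 0.28, adjusted p = 0.000862). DNMT1, the maintenance DNA methyltransferase, was lost in both settings, with means of -1.57 in tumors and -1.77 in culture, and differed by 0.20 (95% interval -0.48 to 0.87, adjusted p = 0.744). Of 14 chromatin genes 2 were higher, against 22 of all 327 genes (6.73%), and 12 did not pass, with a median difference of 0.28. HMGB2, a DNA-bending protein, was the lowest at -0.51 (adjusted p = 0.166). Of 8 squamous fate factors NOTCH3 and IRX3 were higher, against the same 22 of 327, and 6 did not pass, with a median of 0.28. IRX3, an Iroquois homeobox factor, differed by 0.80 (adjusted p = 0.0438), a call lost without value column 2, 3, 4, 5, 7 or 8 (adjusted p up to 0.095) and in the robust fit (adjusted p = 0.0576).

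SLC2A1, JUNB and ACTB were lost in culture, did not pass in tumors, and stood higher in tumors than in culture. SLC2A1 encodes GLUT1, the main glucose importer of keratinocytes. Its tumors ran from -0.82 to 0.88 with a median of 0.50, against -1.51 and -1.11 in the cultures. Value column 8 was the 1 tumor below 0. The difference was 1.67 (SE 0.26, adjusted p = 0.000313). JUNB, a subunit of the AP-1 transcription factor, had tumors from -0.96 to 0.55 (median 0.33), against -1.20 and -1.01 in the cultures, a difference of 1.20 (SE 0.24, adjusted p = 0.00227). ACTB, cytoplasmic beta-actin, had tumors from -0.82 to 0.92 (median -0.06), against -0.96 and -1.04, a difference of 1.04 (SE 0.24, adjusted p = 0.00857). In all 3 genes every tumor lay above both cultures. KLF16, a Krüppel-like transcription factor, differed by 0.74 (adjusted p = 0.0394), which was lost without value column 2, 3, 4, 5 or 8 (adjusted p up to 0.0866).

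Few other members of these groups passed, and 287 of all 327 genes did not pass. Of 6 hypoxia and glycolysis genes SLC2A1 was higher and 5 did not pass (median 0.47). The glycolytic enzyme PKM was lost in both settings, with means of -1.04 in tumors and -1.52 in culture. NDRG1, a gene induced by hypoxia, was the lowest of that list at -0.46 (adjusted p = 0.208). Of 9 AP-1 and immediate early genes JUNB was higher and 8 did not pass (median 0.13), from ATF3, a stress-induced factor, at -0.51 (adjusted p = 0.266). MYC had means of -0.92 in tumors and -0.87 in culture. Of 13 actin genes ACTB and TPM2 were higher, against 22 of all 327 genes (6.73%), and 11 did not pass (median 0.42). CFL1, which severs actin filaments, had means of -0.71 in tumors and -1.51 in culture (adjusted p = 0.0715). The actin monomer binder PFN1, lost in tumors, was the lowest of the list at -0.80 (adjusted p = 0.288), a sign that turned to 0.39 SD units with each column divided by its SD over genes. TPM2, a tropomyosin, differed by 0.88 (adjusted p = 0.0201), which was lost without value column 2 (adjusted p = 0.0534). In at least 1 A431 column TPM2 and another gene had identical values. Such sharing touched 20 of the 327 genes in all, SERPINH1, ADM and INHBA among them.

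Of 19 keratinocyte differentiation genes SERPINB4 was lower, CALML3 was higher and 17 did not pass (median 0.10). Over all 327 genes, 18 were lower (5.50%) and 22 were higher (6.73%). SFN, which stands in none of the lists, was lower in tumors, and JUP, from the junction list, was higher. SFN encodes 14-3-3 sigma, a keratinocyte protein that restrains the cell cycle after DNA damage. Its tumors ran from -2.12 to -0.78 with a median of -1.56, against 0.32 and -0.07 in the cultures, with no overlap. The difference was -1.61 (SE 0.24, adjusted p = 0.000313). SERPINB4, a serine protease inhibitor of squamous epithelium, had the highest culture mean of all genes. Its tumors ran from -1.48 to 0.48 with a median of -0.43, against 0.82 and 0.72 in the cultures, a difference of -1.24 (SE 0.25, adjusted p = 0.0024). SERPINB3, its close relative, differed by -0.19 (adjusted p = 0.596). As with the tubulins, whether guides to 1 of these relatives also cut the other was not checked. JUP encodes plakoglobin, which links desmosomal cadherins to the plaque. Its tumors ran from 0.29 to 2.10 (median 1.01), against -0.25 and -0.05 in the cultures, a difference of 1.24 (SE 0.23, adjusted p = 0.00143). CALML3, a calmodulin-like protein of epithelium, ran from 0.55 to 1.51 in tumors (median 0.87), against 0.00 and 0.07 in the cultures, a difference of 0.93 (SE 0.21, adjusted p = 0.00635).

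Most other genes of these families did not pass, as was so for 287 of all 327 genes. Of 16 junction genes JUP was higher and 15 did not pass (median -0.03), and the desmosomal DSP, DSG3 and DSC3 differed by -0.04, -0.24 and 0.07. GJB6, a gap junction connexin, was the lowest of the list at -0.45 (adjusted p = 0.4). Of 7 serpins SERPINB4 was lower and 6 did not pass (median -0.18), up to SERPINH1, a collagen chaperone, at 0.63 (adjusted p = 0.0594). Of 9 keratins KRT6B, a keratin of stressed epidermis, was higher at 0.83 (adjusted p = 0.0438), a call lost without value column 1, 2, 6, 7 or 8 (adjusted p up to 0.0879), in the robust fit (adjusted p = 0.0668) and with columns divided by their SD (adjusted p = 0.062). The list ran down to KRT1, a keratin of differentiated layers, at -0.50 (adjusted p = 0.272), with a median of 0.11.

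Of 10 S100 and annexin genes, S100A8, ANXA5 and S100A16 were lower, against 18 of all 327 genes, and 7 did not pass. S100A8, a subunit of calprotectin, ran from -3.91 to 0.49 in tumors (median -1.20), against 0.52 and -0.34 in the cultures. With 2 tumors, value columns 1 and 3, inside the range of the cultures, the groups overlapped. Its call at -1.53 (adjusted p = 0.0373) was lost without value column 2, 4, 5, 6 or 7 (adjusted p up to 0.0826), with each column divided by its SD (adjusted p = 0.135) and in the robust fit (adjusted p = 0.0557). ANXA5, a phospholipid-binding annexin, ran from -1.74 to 0.89 in tumors (median -0.59), against 0.60 and 0.81 in the cultures. In 7 tumors ANXA5 lay below both cultures, the nearest at 0.58, and in value column 8 it lay above both. The difference was -1.15 (SE 0.30, adjusted p = 0.0181). S100A16 differed by -0.91 (adjusted p = 0.0363), lost without value column 1, 2, 6 or 8 (adjusted p up to 0.0724) and with columns divided by their SD (adjusted p = 0.064). The list had a median of -0.11 and ran up to S100A14 at 0.39 (adjusted p = 0.483).

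Further lower genes came from other functions. MGST1, a microsomal glutathione transferase, ran from -3.69 to -0.10 in tumors (median -1.21), against -0.11 and -0.13 in the cultures. Value column 3 was level with the cultures and the other 7 tumors lay below them. The difference was -1.36 (SE 0.34, adjusted p = 0.0159). NMU, the neuropeptide neuromedin U, had tumors from -2.75 to 0.64 (median -0.81), against 0.16 in each culture. Its call at -1.04 (adjusted p = 0.0363) was lost without value column 2, 3, 4, 6, 7 or 8 (adjusted p up to 0.0684). DCN, a matrix proteoglycan, differed by -0.79 (SE 0.21, adjusted p = 0.0201), and this call held with any 1 tumor left out (adjusted p up to 0.0446). Of 6 growth factor signalling genes NMU was lower and 5 did not pass (median -0.18), up to ADM, a vasodilator peptide, at 0.46 (adjusted p = 0.166). Among all 327 genes, 18 were lower (5.50%).

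Further higher genes included TXNDC17, GLTSCR2 and E2F8. TXNDC17, a thioredoxin-like protein, ran from -0.52 to 1.16 in tumors (median 0.73), against -0.48 and -0.43 in the cultures. Value column 8 lay below both cultures and the other 7 above them. The difference was 1.00 (SE 0.23, adjusted p = 0.00857). GLTSCR2 (NOP53 in RefSeq), a nucleolar protein, ran from -0.29 to 1.92 (median 0.08), against -0.73 and -0.41. Its call at 0.93 (adjusted p = 0.0398) was lost without value column 1, 2, 3, 4, 6 or 8 (adjusted p up to 0.0859). E2F8, a repressor of the E2F family, differed by 0.82 (adjusted p = 0.0299), which was lost without value column 2, 5 or 6 (adjusted p up to 0.0589) and with columns divided by their SD (adjusted p = 0.14). Of 8 genes of G1 control, E2F8 was higher and 7 did not pass (median 0.18), from E2F2, an activator of the family, at -0.70 (adjusted p = 0.077). Among all 327 genes, 22 were higher (6.73%).

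Calls in the matrix, protease, stromal and immune gene lists stand beside 40 of all 327 genes (12.2%). Lists this small can hold 0 calls at that share. Of 10 laminin and matrix genes TNC was higher and 9 did not pass (median 0.02). TNC, the matrix protein tenascin-C, ran from 0.09 to 1.77 in tumors (median 0.43), against -0.10 and -0.18. Its call at 0.74 (adjusted p = 0.0484) was lost without each of the 8 tumors in turn (adjusted p from 0.0501 to 0.0954). LGALS1, galectin-1, was the lowest of the list at -0.56 (adjusted p = 0.168). Of 16 mesenchymal markers TNC and TPM2 were higher and 14 did not pass (median 0.24). In 4 lists no gene passed. They were 10 proteases and inhibitors (median 0.12), from TIMP1 at -0.61 (adjusted p = 0.189) to SERPINH1, 4 TGF-beta and BMP genes (median 0.10), from TGFBI at -0.33 to INHBA at 0.50, 8 translation and endoplasmic reticulum genes (median 0.15), from HSP90AA1 at -0.58 (adjusted p = 0.108) to RPS19 at 0.69 (adjusted p = 0.0541), and 6 interferon, MHC and NF-kB genes (median 0.31), from RELA at -0.55 to IRF3 at 0.68 (adjusted p = 0.0653). Some genes stand in more than 1 list.

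**Figure D3:**
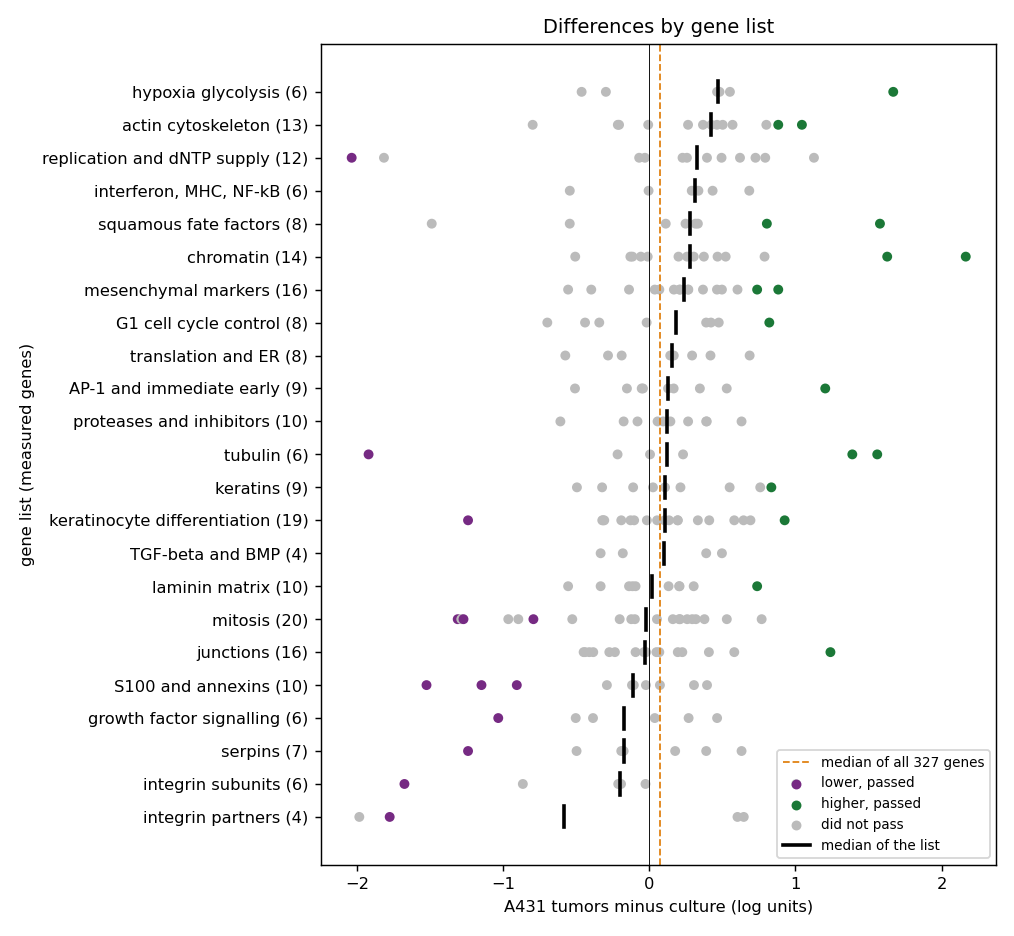
Tumor minus culture differences of the measured genes of 23 lists, in log units, with lower and higher calls in colour, a black bar at each list's median and a dashed line at the median of all 327 genes. Each list holds 0 to 3 called genes, and the tubulin, integrin subunit and keratinocyte differentiation lists hold calls on both sides of 0.

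A lost knockout in 1 setting was often weaker in the other. Of the 37 genes lost in culture, 31 stood higher in tumors, with medians of the gene means at -0.71 in tumors and -1.05 in culture, and 14 of the 37 were lost in tumors too. Of the 39 genes lost in tumors, 30 stood lower in tumors than in culture, with medians of -1.15 in tumors and -0.41 in culture. These sets were picked on values that enter the difference, so the shares are a description and support nothing. DEGS1, a desaturase of ceramide synthesis, was the 1 gene gained in both settings, at means of 1.05 in tumors and 0.64 in culture, and its difference of 0.41 did not pass (adjusted p = 0.297).

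The 8 tumors did not contribute alike. Over the 24 genes with the lowest and highest called differences, value columns 2, 4, 6 and 7 lay on the side of the difference for all 24 genes. Column 5 did so for 23, columns 3 and 8 for 22, and column 1 for 20. The median distance to the culture mean over these genes was 0.91 log units in value column 3 and 1.76 in value column 2. Value column 3, with the lowest SD over genes, was the tumor closest to culture for 8 of the 24. These genes were chosen by their mean over the same tumors, so the counts are a description.

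**Figure D4:**
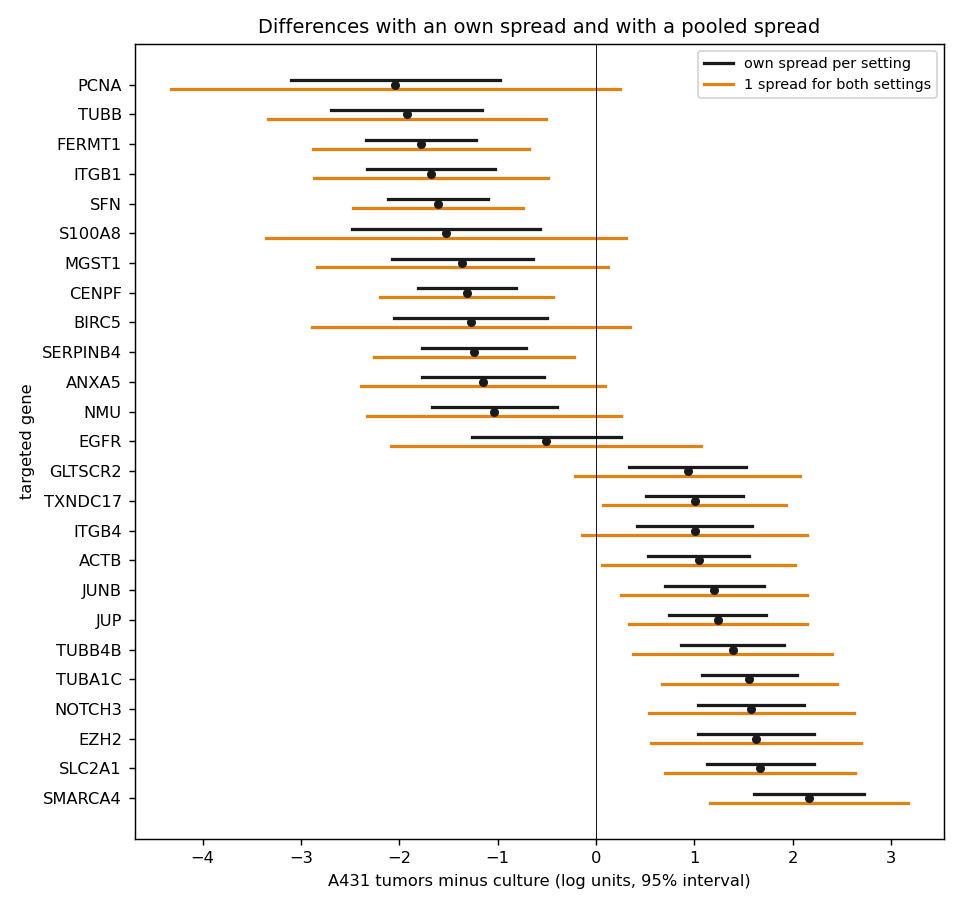
Tumor minus culture differences (points, log units) of the 24 genes with the lowest and highest called differences and EGFR, with 95% intervals from an own spread per setting (black) and from 1 spread for both (orange). The pooled intervals are wider throughout, and those of PCNA, S100A8, MGST1, BIRC5, ANXA5, NMU, ITGB4, GLTSCR2 and EGFR cross 0.

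CAL27, a tongue carcinoma line, is the other line of the series with both settings, with 10 tumors and 2 cultures. There 49 genes were lower in tumors than in culture (15.0%) and 58 were higher (17.7%), together 32.7%, with an own spread. With 1 spread for both settings limma called 0. BIRC5, FERMT1, ITGB1, PCNA, S100A16 and TUBB were lower in both lines, 33.3% of the A431 list and 12.2% of the CAL27 list. ACTB, CALML3, EZH2, IRX3, ITGB4, NOTCH3, SMARCA4, TPM2, TXNDC17 and USF2 were higher in both, 45.5% of the A431 list and 17.2% of the CAL27 list. With columns divided by their SD, the differences of PCNA and EZH2 departed between the lines, by -2.16 and 2.24 SD units (adjusted p = 0.0206 and 0.0204). JUNB and TUBB4B were higher in A431 tumors and lower in CAL27 tumors than in culture. Tested directly, the difference itself differed between the lines for 56 of 327 genes (17.1%), with A431 lower for 23 (7.03%) and higher for 33 (10.1%). Of these, 10 were among the 40 called in A431. The 40 were chosen by a difference that enters this test, so this count and the line differences of these genes are a description.

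FERMT1 and ITGB1 were lower in tumors of both lines by unlike amounts. FERMT1 differed by -1.78 in A431 and -3.69 in CAL27, and ITGB1 by -1.68 and -3.46. The differences between the lines were 1.91 and 1.78 (adjusted p = 0.00579 and 0.0241), and neither passed with columns divided by their SD (adjusted p = 0.97 and 0.669). SLC2A1, JUNB, TUBB4B and TUBA1C stood on opposite sides of 0 in the lines. Within CAL27 the differences of JUNB and TUBB4B passed, and those of SLC2A1 and TUBA1C did not. For SLC2A1 the difference was 1.67 in A431 and -1.08 in CAL27, where means were -2.30 in tumors and -1.22 in culture (difference between lines 2.75, adjusted p = 0.000484). For JUNB it was 1.20 in A431 and -1.18 in CAL27 (2.39, adjusted p = 0.000597), for TUBB4B 1.39 and -1.0 (2.39, adjusted p = 0.000484) and for TUBA1C 1.56 and -0.71 (2.27, adjusted p = 0.0012). JUP differed by 1.24 in A431 and 0.05 in CAL27 (1.19, adjusted p = 0.0209), and SFN by -1.61 and -0.40 (-1.21, adjusted p = 0.026). The SFN difference between lines did not pass on the deposited scale (adjusted p = 0.208), nor did that of TUBB4B with columns divided by their SD (adjusted p = 0.0682). SMARCA4 differed by 2.17 in A431 and 2.03 in CAL27, and NOTCH3 by 1.58 and 1.97. The intervals of their differences between the lines were -0.82 to 1.08 and -1.17 to 0.38. EZH2 differed by 1.63 in A431 and 2.46 in CAL27 from unlike levels, since its culture mean was -2.53 in A431 and -0.15 in CAL27.

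**Figure D5:**
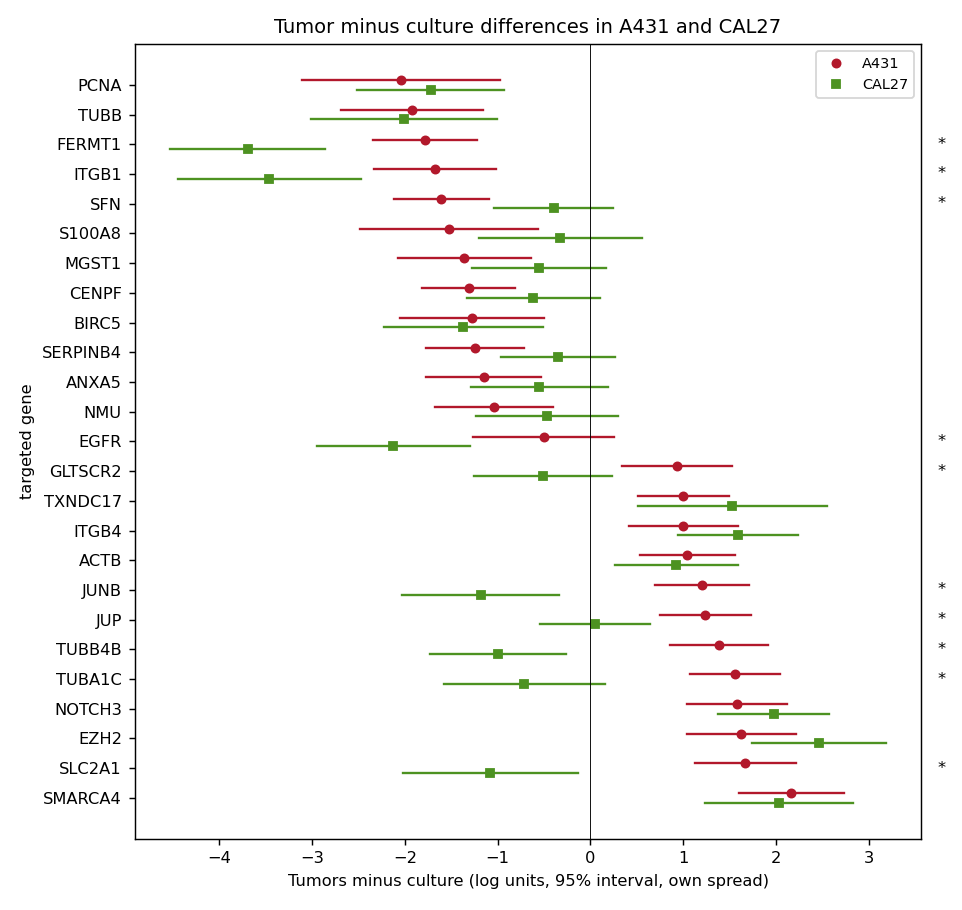
Tumor minus culture differences in A431 (circles) and CAL27 (squares) with 95% intervals, in log units, for the 24 genes with the lowest and highest called differences in A431 and EGFR. Asterisks mark genes whose difference passed the test between lines. Among them, SLC2A1, TUBA1C, TUBB4B and JUNB lie on opposite sides of 0 in the lines. Within CAL27 those of SLC2A1 and TUBA1C did not pass.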

How the data were processed

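Guide RNAs were sequenced from genomic DNA of tumors, cultures and initial cells. The submitters' processing notes name Bowtie2. What version and build were used, the log base, any pseudocount and the way guides were combined per gene were not given in the sources used here. Tables deposited by the authors hold log fold changes per gene, with no counts, in which the non-targeting row was 0 in every column. From these, each column was centred on its median over 327 genes. R 4.3.3 and limma 3.58.1 fitted each table (lmFit and eBayes, intercept alone), which was tested against 0. Tumor minus culture was tested with the moderated variance of each table and Welch-Satterthwaite degrees of freedom, and beside it with 1 spread in a joint limma fit. The same variances of 4 tables gave the test between lines. P-values of these fits were adjusted by the Benjamini-Hochberg method over 327 genes, with a threshold of 0.05. The SCC-13 tumors were left out, since no culture table of that line was used here. The fits were run on simulated data with independent normal noise at the moderated spreads of these tables. Those data held no shared start of the cultures and no error of the initial cells, so they cannot test these limits.

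The genes, the 23 gene lists and the choice of the own spread were set with earlier results of these data known. Named are the 12 lowest and 12 highest called differences with at least 75% of tumors on that side of the culture mean, ITGB1, FERMT1 and EGFR, the lowest and highest member of each list with at least 3 measured genes, and called genes of opposite sign in both tables, of which there were 0. Other named genes were chosen after their values were seen. Of 327 symbols, 311 were current in RefSeq (GRCh38.p14) and 16 were synonyms. P-values measure the spread between these tumors or cultures, which the labels do not call separate animals or cultures, and across tables they assume the same log base and guide summary. Alternatives were other centring and scaling, a robust fit, genes with shared values left out, and each column left out.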

Additional observations from a re-analysis of the deposited data

Results flagged for a closer look

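CD151 in A431 tumors held 1 value far from the others. Value column 2 stood at -8.22, while the other 7 tumors lay between -2.54 and 0.30. The gap to the nearest tumor was 0.67 of the whole range, over Dixon's critical value of 0.526 for 8 values. It was the 1 such case among 53 named genes, and chance gives about 1 in 20.

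For 13 of 53 named genes the tumor minus culture difference in A431 departed from that in CAL27 past an adjusted p of 0.05. Over all genes, 56 of 327 did so (17.1%). Many named genes were chosen by A431 differences that enter this test, so the count is a description. The A431 difference was larger by 2.75 log units for SLC2A1, 2.39 for JUNB, 2.39 for TUBB4B, 2.27 for TUBA1C, 1.44 for GLTSCR2, 1.19 for JUP and 1.85 for CDC20. For FERMT1, ITGB1 and EGFR, whose differences were more negative in CAL27, it was larger by 1.91, 1.78 and 1.62. A431 minus CAL27 was -1.21 for SFN, -2.0 for ADM and -1.60 for TPM2. The SD over genes ran from 0.421 to 1.34 in A431 tumor columns and from 1.09 to 2.23 in CAL27 tumor columns. With each column divided by its SD, SLC2A1, JUNB, TUBA1C, JUP, GLTSCR2, SFN and CDC20 passed (adjusted p from 0.00189 to 0.0358). FERMT1 (adjusted p = 0.97), ITGB1 (0.669), EGFR (0.385), TPM2 (0.487), TUBB4B (0.0682) and ADM (0.0877) did not. EZH2, at -0.83 log units between the lines (adjusted p = 0.209), passed there with the opposite sign, at 2.24 SD units (adjusted p = 0.0204). PCNA (-2.16 SD units, adjusted p = 0.0206), CENPF (-1.44, adjusted p = 0.0358) and SERPINB4 (-1.50, adjusted p = 0.0204) also passed there and not in log units. On the deposited scale SFN (adjusted p = 0.208) and TPM2 (adjusted p = 0.0746) did not pass, while TNC, BRCA1 and RPS19 did (adjusted p = 0.0241, 0.0156 and 0.0404).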

How the results depend on the processing

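The 18 lower and 22 higher genes of A431 tumors against culture became 0 and 0 with 1 spread for both settings. Leaving out each value column in turn gave 0 to 18 lower and 0 to 22 higher genes. The 0 came from leaving out a culture, when the lone culture was assumed to vary like the tumors, and there 3 to 4 lower and 5 to 6 higher genes had an unadjusted p under 0.05. Leaving out a tumor gave 11 to 18 lower and 12 to 22 higher genes. The higher genes numbered 38 on the deposited scale, where the median difference over genes was 0.16, and 44 with each column divided by its SD over genes. Higher genes thus made up 55.0% of the calls, 69.1% on the deposited scale and 67.7% after division by the SD. The cause of these shifts was not tested. Of the 22 higher genes, 22 and 18 passed in these settings, and of the 18 lower genes, 16 and 14. The robust fit called 18 lower and 26 higher genes, of which 15 and 19 were among those called here. Leaving out value columns 2, 3 and 6 together, chosen after seeing the data, gave 13 and 15, of which 10 and 12 were. The test between lines passed 56 genes, and 28 with columns divided by their SD, of which 20 were shared. With columns divided by their SD, EGFR turned to 0.62 and PFN1 to 0.39. No other named difference changed sign in 788 values over the alternatives other than that set of columns, of which 141 lost and 19 gained a call. Beside CD151, CDC20 and TP63, calls were gained by BRCA1, FHL2, IRF3, RPS19 and SERPINH1 on the deposited scale, and by E2F2, LGALS1 and RPS19 with columns divided by their SD. SERPINH1 also gained one in the robust fit, and BRCA1 without value column 7 or without genes of shared values, where TNC lost its call. No paired analysis was possible because the value columns carry no replicate numbers. Depth is unknown, so a limit by read number cannot be given.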
